A study of Mus musculus with 4 samples.

Results

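The genes described here are those of 9 adhesion and exit molecules that leukocytes use to enter and leave tissue, Itga4, Itgb1, Itgal, Itgb2, Itgb7, Selplg, Cd44, Icam1 and S1pr1. They were chosen by symbol, and all 9 were among the 31053 genes listed in the deposited matrices. The libraries held CD45+ cells sorted from mouse spinal cord, with 1 library per group. These groups were a sham library made with the standard dissociation, a sham library made with actinomycin D (ActD, which blocks transcription while the tissue is dissociated), and libraries of contused cord at 3 and 14 days post injury (dpi), both made with ActD. By the methods of the study, sham mice had a laminectomy without contusion, while the labels of both sham libraries call the cords healthy. The C57BL/6 mice were 3 months old and of both sexes, and the sources used here give their number for the groups together, not by library.

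Leukocytes roll on vessel walls through selectins, which bind PSGL-1 (the product of Selplg) and can bind CD44 (Cd44), also a receptor for hyaluronan. Firm arrest needs integrins, which are pairs of an alpha and a beta chain. Integrin alpha4 (Itga4) pairs with beta1 (Itgb1) to bind VCAM-1 or with beta7 (Itgb7) to bind MAdCAM-1, and beta1 also pairs with many other alpha chains. Integrin alphaL (Itgal) pairs with beta2 (Itgb2) to form LFA-1, which binds ICAM-1 (Icam1), while beta2 also serves the alpha chains of Mac-1 and of CD11c. The receptor S1P1 (S1pr1) guides lymphocytes out of lymphoid organs and tissue along sphingosine 1-phosphate, and naive lymphocytes are known for its expression. Microglia, the resident macrophages of the cord, do not enter from blood in adult life.

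The 4 libraries kept 2135 to 9078 cells after filtering, with median depths of 7426 to 9672 unique molecular identifiers (UMIs, each counting 1 captured RNA molecule). A UMI of Ptprc, which encodes CD45, was found in 84.1% to 94.8% of the cells of a library. Cells were assigned to classes by marker genes, leaving 6.54% to 13.4% of a library without a name. Levels are CPM, the UMIs of a gene scaled to the summed UMIs of a class in a library, with exact 95% Poisson intervals in brackets, and ratios carry exact conditional 95% intervals. With 1 library per group there was no spread between replicates, so no test was made and the intervals cover counting error only. The deposited software version differed too (3.0.1 for standard sham and 3 dpi, 3.1.0 for ActD sham and 14 dpi). Version and group cannot be told apart between libraries of unlike version, while ActD sham and 14 dpi shared theirs. CPM is a share of a class's RNA, so that a lower share and less RNA per cell cannot be told apart, and levels are compared between classes and libraries, not between genes.

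The order of the classes differed from gene to gene. Among classes of at least 50 cells at 14 dpi, Itga4 was lowest in microglia-like cells at 24.8 CPM and highest in monocyte-like cells at 476 CPM. Itgb7 spanned 2.40 CPM in microglia-like to 526 CPM in gamma-delta T cell-like cells. Itgal was not detected in 50 endothelial cell-like cells, where 3 UMIs would be 6.51 CPM, and reached 281 CPM in gamma-delta T cell-like cells. Itgb2 was lowest in B cell-like cells at 36.1 CPM and highest in neutrophil-like cells at 415 CPM. S1pr1 ran from 1.07 CPM in monocyte-like to 295 CPM in endothelial cell-like cells. Itgb1 was lowest in neutrophil-like cells at 48.8 CPM and highest in NK cell-like cells at 969 CPM. For Itgb1 and Itgb2 both ends lay in blood-derived classes, which thus did not share one level of either gene. These classes are called blood-derived by their markers, and where their cells came from was not tested. For the other genes given, microglia-like or endothelial cell-like cells lay at an end of the range. The 50 endothelial cell-like cells were also led by the fibroblast genes Dcn and Col1a2, besides Cldn5.

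**Figure D1:**
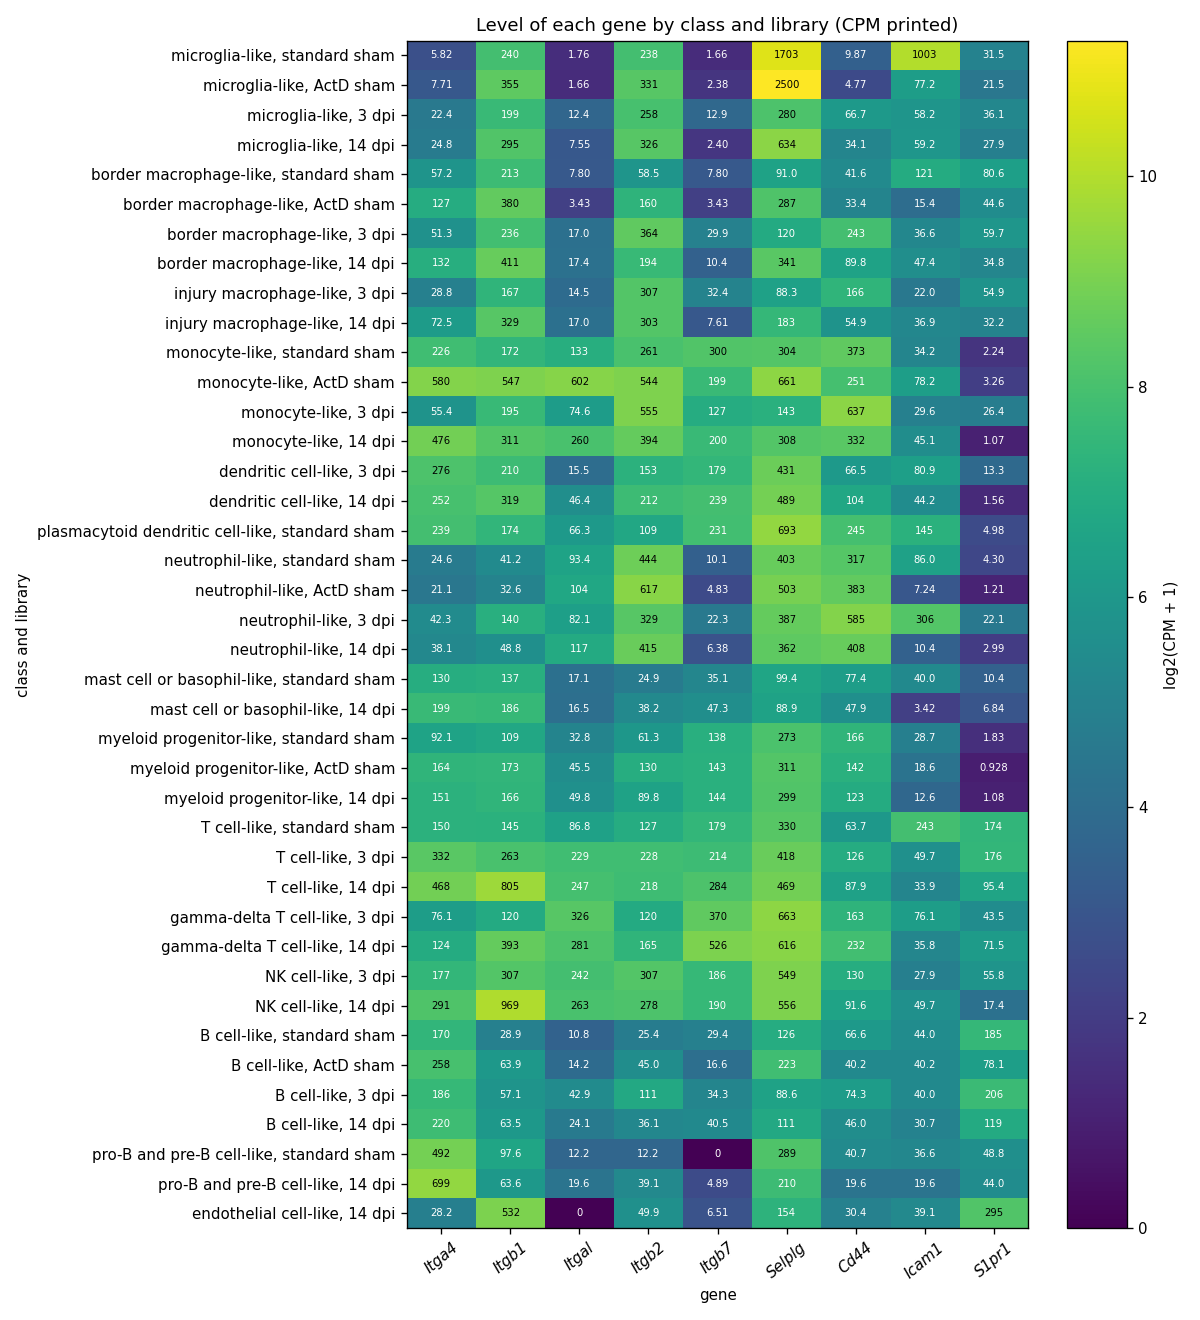
Level of the 9 genes (columns) in each marker-defined class and library (rows), coloured by log2(CPM + 1) with the CPM printed in each cell. Microglia-like rows lie at or under 24.8 CPM of Itga4, 12.4 of Itgal and 12.9 of Itgb7, and B cell-like rows hold 78.1 to 206 CPM of S1pr1.

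Microglia-like cells held little Itga4, Itgal, Itgb7 and Cd44 in sham cord and more of all but Itgb7 at both times after injury. Cd44 was 4.77 CPM (3.81 to 5.89) in ActD sham, 9.87 in standard sham, 66.7 at 3 dpi and 34.1 at 14 dpi. That is 14.0-fold higher than ActD sham at 3 dpi and 7.16-fold higher at 14 dpi. Itgal was 1.66 CPM in ActD sham and 1.76 in standard sham against 12.4 at 3 dpi and 7.55 at 14 dpi. Itga4 was 7.71 and 5.82 CPM in the ActD and standard sham libraries and 22.4 and 24.8 CPM at 3 and 14 dpi. Itgb7 stood at 12.9 CPM (11.4 to 14.5) at 3 dpi but between 1.66 and 2.40 CPM in the other 3 libraries. None of the intervals of these 4 genes at 3 dpi overlapped those of either sham library. A cycling cluster held part of the sham levels, with 53.7 CPM of Itga4 and 23.2 CPM of Itgb7 in its 73 ActD sham cells. Without this cluster in any library, Itgb7 was 0.484 CPM in ActD sham, 9.87 at 3 dpi and 2.40 at 14 dpi, and its log2 ratio to ActD sham at 14 dpi was 2.31 (1.28 to 3.55) in place of 0.01. Itga4 was then 3.51, 18.9 and 24.8 CPM and Itgal 0.666, 10.9 and 7.55 CPM in the same order.

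Selplg went the other way. It was 2500 CPM in ActD sham, 1703 in standard sham, 280 at 3 dpi and 634 at 14 dpi. The log2 ratio to ActD sham was -3.16 (-3.20 to -3.12) at 3 dpi and -1.98 at 14 dpi, a level 3.94-fold lower. Among cells thinned to 1000 UMIs each, 88.6% held a Selplg UMI in ActD sham, 26.1% at 3 dpi and 46.5% at 14 dpi, and without thinning 99.6%, 87.5% and 96.0% did. In B cell-like cells, which hold less Selplg, the thinned shares were 17.2%, 12.3% and 11.7%. The beta chains Itgb1 (355, 199 and 295 CPM in ActD sham, 3 dpi and 14 dpi) and Itgb2 (331, 258 and 326 CPM) differed by less than 2-fold.

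Of the 9 genes, 5 differed at least 2-fold in microglia-like cells at 3 dpi, 4 of them higher. By the same rule 44.5% of the 11346 genes that reached 50 UMIs over both sums differed, 12.2% higher and 32.3% lower. At 14 dpi 4 of 9 differed, 3 higher and 1 lower, against 23.7% of all genes tested (4.48% higher and 19.3% lower). The median log2 ratio of all genes tested was -0.53 at 3 dpi and -0.56 at 14 dpi. Scaling by TMM factors raised every ratio by 0.38 and 0.54 and turned the signs of Itgb2 at both times and of Itgb1 and Icam1 at 14 dpi, all under 2-fold. The 8 markers of injury macrophages summed to 40.7 CPM in ActD sham microglia-like cells, 5277 CPM at 3 dpi and 1591 CPM at 14 dpi, and their part in the differences was not tested.

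**Figure D2:**
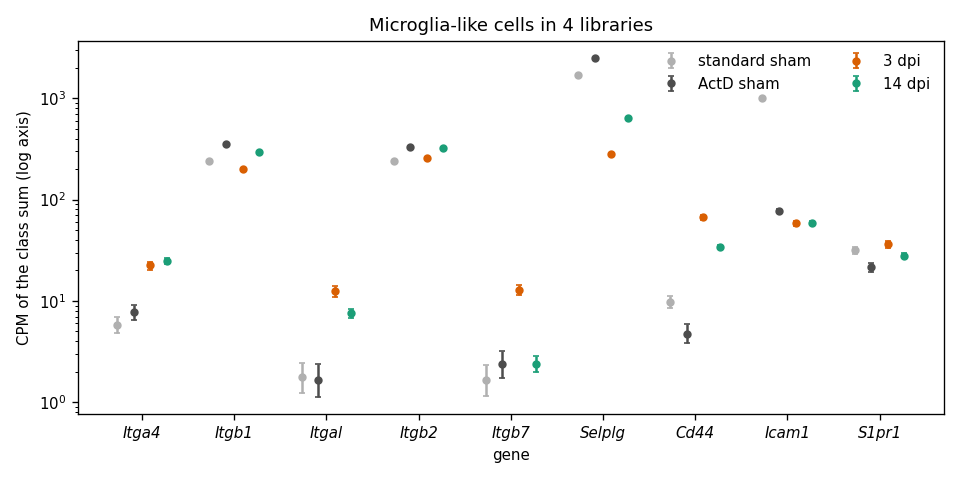
CPM (log axis) of the 9 genes in microglia-like cells of the 4 libraries, with exact 95% Poisson intervals. Selplg was 280 CPM at 3 dpi against 2500 in ActD sham, Cd44 66.7 against 4.77, and Icam1 was 1003 CPM in standard sham against 58.2 to 77.2 CPM in the other libraries.

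Within the microglia-like cells the levels followed the clusters. At 3 dpi 430 of the 1012 cells lay in a cycling cluster led by Top2a and Mki67, and leaving it out in each library gave a Selplg log2 ratio of -3.00 and a Cd44 log2 ratio of 4.41 at 3 dpi over ActD sham. The cluster led by P2ry12, Gpr34 and other homeostatic genes held 933 cells in ActD sham and 113 at 3 dpi. There Selplg was 2989 CPM in ActD sham, 645 at 3 dpi and 1428 at 14 dpi, and Cd44 was 1.48, 38.8 and 18.2 CPM. At 14 dpi the cluster led by Lpl and Spp1, with 2241 cells, held less Selplg (426 CPM) and more Itga4 (29.8 against 8.22 CPM) and Cd44 (39.8 against 18.2 CPM) than the homeostatic cluster with 774 cells. The differences therefore were present within single clusters as well as between them. Clusters were made without the 9 genes.

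The other genes of the pathway, taken from lists of related genes, differed in both directions in microglia-like cells. Of all genes tested at 3 dpi over ActD sham, 12.2% were at least 2-fold higher and 32.3% lower. Of the partners of CD44 with enough UMIs, 4 of 7 were at least 2-fold higher at 3 dpi and none lower, with a median log2 ratio of 1.83 against -0.53 over all genes. They were led by Spp1 (osteopontin, a CD44 and integrin ligand) at 23742 CPM against 35.1 in ActD sham. Of the selectin ligand synthesis genes 5 of 9 were lower and none higher, led by the sialyltransferase gene St3gal6 at 32.4 against 277 CPM. Of the other integrin chains 5 of 9 were lower and 1 higher, with Itga9 lower by 7.25-fold and Itga5, a fibronectin receptor chain, at 48.0 against 14.0 CPM. At 14 dpi Itgax, which encodes CD11c and pairs with beta2, was 8.70-fold (7.54 to 10.1) higher than in ActD sham. Among ligands and junction proteins 6 of 8 were lower at 3 dpi, led by Jam3 and F11r. The integrin activation genes split into 1 higher and 2 lower of 11.

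Icam1 differed between the sham libraries, which differ in dissociation protocol and in software version. In microglia-like cells it was 1003 CPM in the standard sham library and 77.2 CPM (73.2 to 81.4) in the ActD sham library, a log2 ratio of 3.70 (3.62 to 3.78). The injured libraries, both made with ActD, held 58.2 and 59.2 CPM. Only 2 of the 9 genes, Icam1 and Cd44 at 2.07-fold, differed at least 2-fold between the sham protocols in microglia-like cells, where 28.6% of all genes tested did and 5.37% were higher. After thinning, 51.1% of microglia-like cells had an Icam1 UMI in standard sham and 8.55% in ActD sham, and without thinning 90.4% and 51.6% did. In neutrophil-like cells of the same libraries the thinned shares were 4.11% and 1.02%. The difference was seen in neutrophil-like cells too, with 86.0 against 7.24 CPM, and in border macrophage-like cells with 121 against 15.4 CPM. Markers of the neutrophil-like cells also differed between these libraries. G0s2 was 1470 against 147 CPM, Il1r2 922 against 234 CPM and Cxcr2 294 against 965 CPM, and their part in the Icam1 difference was not tested. In B cell-like cells the intervals overlapped, at 44.0 (35.4 to 54.1) against 40.2 CPM (23.4 to 64.4). The transcription factor gene Klf2 was 3031 against 78.7 CPM in the same microglia-like cells, and Vcam1 35.8 against 6.04 CPM. The 3 genes most like Icam1 across 33 class and library sums were Skil (Pearson r 0.85), Map3k8 (0.80) and Dennd4a (0.76), among 10698 genes compared.

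The Icam1 promoter is known to hold a kappaB site, which binds NF-kappaB proteins, and is shown because Icam1 differed most between the sham protocols in microglia-like cells among the 9 genes. The window runs from 250 bases before to 50 after the start on the plus strand, at chr9:21015690-21015989 of GRCm38.p6 (RefSeq), with letters matching GGAANNTCC in capitals:
Icam1: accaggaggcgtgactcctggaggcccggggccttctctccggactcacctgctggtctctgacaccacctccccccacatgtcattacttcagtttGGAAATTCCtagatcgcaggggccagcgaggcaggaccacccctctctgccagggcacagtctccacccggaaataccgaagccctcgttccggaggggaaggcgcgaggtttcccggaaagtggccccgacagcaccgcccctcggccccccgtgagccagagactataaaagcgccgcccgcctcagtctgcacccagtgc
The 1 match starts at -153 and meets the motif on both strands. Of 32544 promoter windows of this length, 4.27% held these letters. A match is a description of letters and no evidence of binding in these cells.

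Neutrophil-like cells at 3 dpi held more Icam1 than those of the other ActD libraries. The level was 306 CPM (290 to 323) at 3 dpi, 10.4 CPM at 14 dpi and 7.24 CPM in ActD sham. On the log2 scale 3 dpi lay 4.88 (4.55 to 5.22) above 14 dpi. Itgb1 was 140 CPM at 3 dpi against 48.8 at 14 dpi and 32.6 in ActD sham. For LFA-1, Itgal was 82.1, 117 and 104 CPM and Itgb2 329, 415 and 617 CPM in the same order. Selplg was 387, 362 and 503 CPM and Cd44 585, 408 and 383 CPM. Itga4 ran from 21.1 CPM in ActD sham to 42.3 CPM at 3 dpi. Each of Itgal, Itgb2, Selplg and Cd44 differed by less than 2-fold in CPM between these libraries. With TMM factors the log2 ratios of 3 over 14 dpi were -1.65 for Itgal, -1.47 for Itgb2 and -1.04 for Selplg. Those to ActD sham were -1.15, -1.71 and -1.18. Cd44 stayed under 2-fold, at -0.62 and -0.19.

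Of the 9 genes, Icam1, S1pr1, Itgb1, Itgb7 and Itga4 were at least 2-fold higher at 3 dpi than in ActD sham and none lower, 5 of 9 where 56.8% of genes tested differed, 49.3% higher and 7.57% lower. The S1pr1 value rests on 2 UMIs in ActD sham, with an 18.3-fold difference (4.93 to 153). Against 14 dpi 4 of 9 were higher and none lower, where 57.7% of genes tested differed and 51.7% were higher. The 9 neutrophil markers summed to 54145 CPM at 3 dpi and to 358930 and 371214 CPM in ActD sham and at 14 dpi, and their part in these ratios was not tested. Injury macrophage markers were also counted in the 3 dpi neutrophil-like cells, as given below. These cells had a median depth of 2291 UMIs, against 14106 in ActD sham. The part of both in these ratios was not tested. The median of all genes tested was 0.98 on the log2 scale for 3 dpi over ActD sham and 1.05 for 3 over 14 dpi. With TMM factors 4 genes were higher and 3 lower at 3 dpi than in ActD sham, and 2 higher and 3 lower than at 14 dpi. The shares of all genes were computed on CPM only, so the TMM counts cannot be set beside them. The ratios of 3 over 14 dpi fell by 1.14, and Cd44, Selplg and Itga4 changed sign to -0.62, -1.04 and -0.99. At 14 dpi over ActD sham none of 8 genes with enough UMIs differed at least 2-fold, against 8.17% of all genes (4.48% higher and 3.69% lower).

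The neutrophil-like cells of the 3 libraries came from different clusters. At 3 dpi 1521 of 1814 cells lay in the cluster led by Il1b and G0s2, which had a median depth of 2255 UMIs, against 309 of 1208 at 14 dpi. The 14 dpi cells lay mostly in a cluster led by Retnlg (446) and one led by granule genes such as Ltf and Ngp (453). The 98 cells of ActD sham were split 44 and 54 between the latter clusters. Within the Il1b and G0s2 cluster, Icam1 was 348 against 74.0 CPM at 3 and 14 dpi, while Cd44 was 567 against 1158 CPM, Selplg 349 against 770 CPM, Itga4 43.0 against 112 CPM and Itgal 80.4 against 203 CPM. Within the Retnlg cluster, Icam1 was 162 against 5.11 CPM and Itgb1 132 against 11.6 CPM. The Icam1 difference held within both clusters, and the Itgb1 difference within the Retnlg cluster but not the Il1b and G0s2 cluster, at 146 and 160 CPM. In the same 3 dpi neutrophil-like cells Itga5 was 74.2 CPM and not detected in ActD sham, where 3 UMIs would be 1.81 CPM. The S1P receptor gene S1pr4 was 5.91 CPM at 3 dpi, 50.4 at 14 dpi and 85.1 in ActD sham, and Cd69, which opposes S1P1 at the surface, was 209, 20.6 and 12.1 CPM.

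Monocyte-like cells held more alphaL, beta7 and CD44 message than the injury macrophage-like cells of the same library. At 3 dpi Itgal was 74.6 against 14.5 CPM, Itgb7 127 against 32.4 CPM and Cd44 637 against 166 CPM. The log2 ratios were 2.37 (2.20 to 2.54), 1.98 (1.85 to 2.10) and 1.94. At 14 dpi the same genes were 260 against 17.0, 200 against 7.61 and 332 against 54.9 CPM, and Itga4 joined them at 476 against 72.5 CPM. S1pr1 went in the opposite direction, at 26.4 against 54.9 CPM at 3 dpi and 1.07 against 32.2 CPM at 14 dpi. At 3 dpi the monocyte-like cells also carried macrophage markers, the 8 of injury macrophages summing to 16138 CPM against 3448 CPM at 14 dpi and 24129 CPM in the injury macrophage-like cells of 3 dpi. Their monocyte genes Ly6c2 and Plac8 were 232 and 692 CPM at 3 dpi and 3338 and 6235 CPM at 14 dpi. The injury macrophage-like cells also differed in markers between the times. From 3 to 14 dpi, Arg1 was 4484 and 3.13 CPM, Thbs1 1533 and 32.9 CPM, and Fn1 950 and 209 CPM. Gpnmb was 2132 and 2153 CPM and Ms4a7 375 and 753 CPM. The part of these differences in the ratios was not tested. Itgb1, the shared beta chain, was 195 against 167 CPM at 3 dpi and 311 against 329 CPM at 14 dpi.

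At 3 dpi 4 of 9 genes differed at least 2-fold, 3 of them higher in monocyte-like cells, where 12.6% of genes tested differed (7.56% higher and 5.01% lower). At 14 dpi 5 of 9 differed, 4 of them higher, against 28.6% of all genes (17.4% higher and 11.2% lower). The 3 dpi classes had 739 and 2728 cells and the 14 dpi classes 679 and 302. Both times showed Itgal, Itgb7 and Cd44 on the monocyte side and S1pr1 on the macrophage side. Of the integrin activation genes 5 of 11 were at least 2-fold higher in 14 dpi monocyte-like cells and none lower, led by Rasgrp2, which activates Rap1 upstream of integrins, at 128 against 6.72 CPM. In the S1P list Klf2, which drives S1pr1 in lymphocytes, was 584 against 25.3 CPM although S1pr1 itself was nearly absent. S1pr5, a receptor known from patrolling monocytes and NK cells, was 19.8 against 0.672 CPM.

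**Figure D3:**
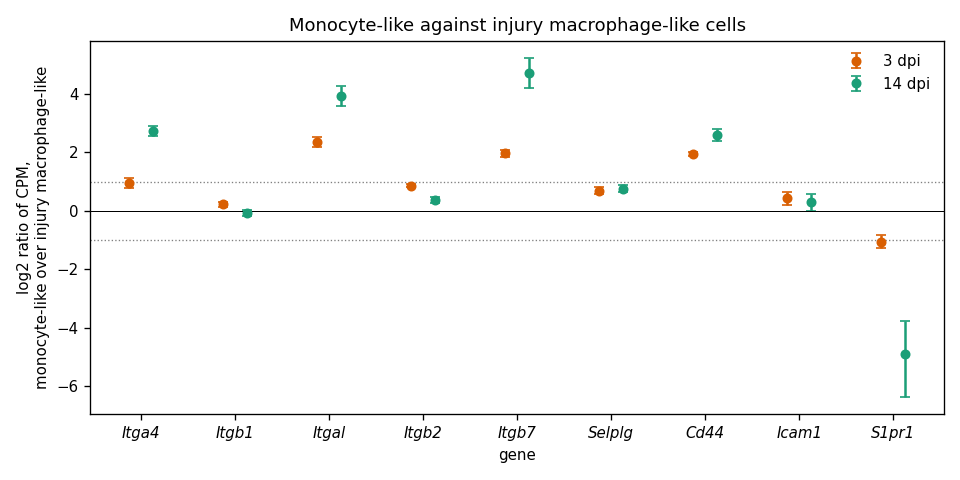
Log2 ratio of CPM of monocyte-like over injury macrophage-like cells at 3 and 14 dpi, with exact conditional 95% intervals and dotted lines at 2-fold. Itgal, Itgb7 and Cd44 lie above the upper line at both times, Itga4 at 14 dpi, and S1pr1 lies below the lower line. The markers of both classes differed between the times.

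The monocyte-like cells held a classical cluster led by Vcan and Ccr2 and a second, non-classical cluster. At 3 dpi the second cluster was led by interferon response genes such as Rsad2, Ifit1 and Isg15, with Ms4a4c and Plac8. At 3 dpi 677 of 739 cells were in the classical cluster, and at 14 dpi 356 and 323 cells were in the classical and the second cluster. Itga4 in the classical cluster was 200 CPM in standard sham, 47.9 CPM at 3 dpi and 385 CPM at 14 dpi. Its log2 ratio between 14 and 3 dpi was 3.01 (2.82 to 3.20), where the median of all genes was 0.30. Itgal in that cluster was 95.7, 62.1 and 151 CPM, and Cd44 was 368, 648 and 337 CPM. In the second cluster Itgal was 292 CPM in standard sham, 602 in the 20 cells of ActD sham, 261 at 3 dpi and 394 at 14 dpi. The cluster thus held more Itgal than the classical one in every library that had both. Its Itga4 was likewise lower at 3 dpi (166 CPM) than at 14 dpi (589 CPM) and in standard and ActD sham (338 and 580 CPM).

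Border macrophage-like cells were named by markers of macrophages resident at the meninges and vessels, and the residence of these cells was not tested. Injury macrophage-like cells and border macrophage-like cells lay under 2-fold apart in all 9 genes at 3 dpi. By the same rule 8.91% of genes tested were 2-fold apart, 1.59% higher and 7.32% lower in injury macrophage-like cells. The largest log2 ratio was -0.83 (-1.03 to -0.63) for Itga4, at 28.8 against 51.3 CPM. Against microglia-like cells of the same library, injury macrophage-like cells had Itgb7 and Cd44 higher (32.4 against 12.9 and 166 against 66.7 CPM). They had Selplg and Icam1 lower (88.3 against 280 and 22.0 against 58.2 CPM). These 4 of 9 genes compare with 19.2% of all genes tested. In sham cord, border macrophage-like cells stood apart from microglia-like cells by Itga4 (127 against 7.71 CPM in the ActD library, log2 ratio 4.04) and Selplg (287 against 2500 CPM). Border macrophage-like cells at 3 dpi had 243 CPM of Cd44 and 364 CPM of Itgb2, against 33.4 and 160 CPM in ActD sham. The markers of the class differed as well, from ActD sham to 3 dpi, with Mrc1 at 2648 and 431 CPM, Lyve1 at 752 and 125, Cd163 at 697 and 126, Folr2 at 635 and 184, and Pf4 at 3027 and 9640 CPM. Their part in the Cd44 and Itgb2 differences was not tested. At 14 dpi the border macrophage-like cells had 89.8 and 194 CPM, between the ActD sham and 3 dpi levels.

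T cell-like cells differed between the 3 and 14 dpi libraries mainly in Itgb1. It was 263 CPM (241 to 287) at 3 dpi and 805 CPM (774 to 836) at 14 dpi, a log2 ratio of 1.61 (1.47 to 1.75). Itgb1 was the only gene of 9 at least 2-fold apart between 14 and 3 dpi, where 9.81% of 7524 genes tested were (5.48% higher and 4.33% lower). Itga4 was 332 and 468 CPM, Itgal 229 and 247 CPM, Itgb2 228 and 218 CPM, Itgb7 214 and 284 CPM, Selplg 418 and 469 CPM and Cd44 126 and 87.9 CPM. S1pr1 was 176 CPM (157 to 195) at 3 dpi and 95.4 CPM (85.2 to 106) at 14 dpi. NK cell-like cells also had more Itgb1 at 14 dpi (969 against 307 CPM), as did gamma-delta T cell-like cells (393 against 120 CPM), though the 3 dpi classes held only 33 and 23 cells. Itgb1 was also higher at 14 than at 3 dpi in microglia-like, monocyte-like, dendritic cell-like, injury macrophage-like and border macrophage-like cells. It was lower in neutrophil-like cells, and the log2 ratio in B cell-like cells was 0.15. The 3 and 14 dpi libraries also differ in software version, which cannot be told apart from time here. The sham libraries differ in version too. ActD sham shares that of 14 dpi and standard sham that of 3 dpi. Between ActD and standard sham, Itgb1 was 380 against 213 CPM in border macrophage-like cells. In microglia-like cells it was 355 against 240 CPM. Standard sham gave 26 T cell-like cells with 145 CPM of Itgb1 and 174 CPM of S1pr1.

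Some T cell-like subclusters were led by genes of other classes. At 3 dpi 48 cells were led by the B cell genes Igkc and Cd79a and held 785 CPM of Itga4, against 209 to 366 CPM in the other subclusters. Among the 14 dpi subclusters, 53 cells had Cd79a in front, 60 were led by NK and gamma-delta genes, and 10 by microglial genes. Leaving these out again left 1 of the 9 genes 2-fold apart between the times. The 8 injury macrophage markers summed to 2588 CPM in T cell-like, 2940 in B cell-like and 3990 in neutrophil-like cells at 3 dpi, but to 223, 154 and 1337 CPM at 14 dpi. In injury macrophage-like cells the sums were 24129 and 7989 CPM. Spp1 alone was 4286 CPM in 3 dpi T cell-like cells and 113 CPM at 14 dpi. In NK and gamma-delta T cell-like cells at 3 dpi they summed to 2622 and 2543 CPM. Macrophage markers were thus counted in these 4 lymphocyte classes and in neutrophil-like cells at 3 dpi. Their part in the differences between the times was not tested.

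Naive-like T cells were named by Ccr7, Lef1, Tcf7, Satb1, Igfbp4 and Dapl1 from subclusters made without the 9 genes, and held more S1pr1 than the other T cell-like cells at both times. At 14 dpi 3 of these 6 markers were found in at least 25% of the naive-like cells, and 5 at 3 dpi. Of the activated-like markers (Icos, Ctla4, Tnfrsf4 and similar genes), 4 passed this limit in the 14 dpi naive-like cells and 1 at 3 dpi. Igfbp4 was 9.08 CPM at 14 dpi against 491 CPM at 3 dpi, while Tcf7 was 381 and 359 CPM. At 3 dpi 94 naive-like cells held 289 CPM of S1pr1 (233 to 353) against 152 CPM in the other 386 T cell-like cells. At 14 dpi 118 naive-like cells held 260 CPM of S1pr1 (219 to 306) against 62.9 CPM in the other 499. The log2 ratios were 0.93 (0.57 to 1.28) and 2.04 (1.72 to 2.37). Itgal was lower in naive-like cells than in the others at both times, with 70.7 against 262 CPM at 3 dpi and 152 against 266 CPM at 14 dpi. Cd44, which marks antigen-experienced T cells, was 52.2 against 141 CPM at 3 dpi but 88.9 against 87.7 CPM at 14 dpi. Itga4 and Itgb1 were lower at 3 dpi (209 against 358 and 141 against 289 CPM) and higher at 14 dpi (677 against 427 and 980 against 770 CPM). The naive-like clusters of both times therefore shared more S1pr1 and less Itgal than the other T cells but not the levels of the alpha4 and beta1 chains.

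Against the activated-like clusters, named by Icos, Ctla4, Tnfrsf4 and similar genes, the differences were less alike between the times. At 3 dpi Itgal (70.7 against 276 CPM) and Cd44 (52.2 against 177 CPM) were at least 2-fold lower in naive-like cells, 2 of 8 genes with enough UMIs, where 10.5% of genes tested differed. S1pr1 was 289 against 153 CPM, a log2 ratio of 0.91 (0.46 to 1.37). At 14 dpi the activated-like cluster held only 30 cells and was led by Foxp3, the regulatory T cell factor. Only Itgb1 of 8 genes was 2-fold apart there (980 against 389 CPM), against 8.91% of all genes tested, S1pr1 was 260 against 152 CPM and Itgal 152 against 85.7 CPM. That Itgb1 difference turned around under 3 alternatives of cell selection and clustering. Klf2 was 756 against 272 CPM at 3 dpi and 742 against 402 CPM at 14 dpi, and Itga1, a collagen receptor chain of tissue T cells, was 9.22 against 103 CPM at 3 dpi. A Cd4 UMI was found in 66.9% of naive-like cells at 14 dpi and 27.7% at 3 dpi, and a Cd8b1 UMI in 16.9% and 43.6%.

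**Figure D4:**
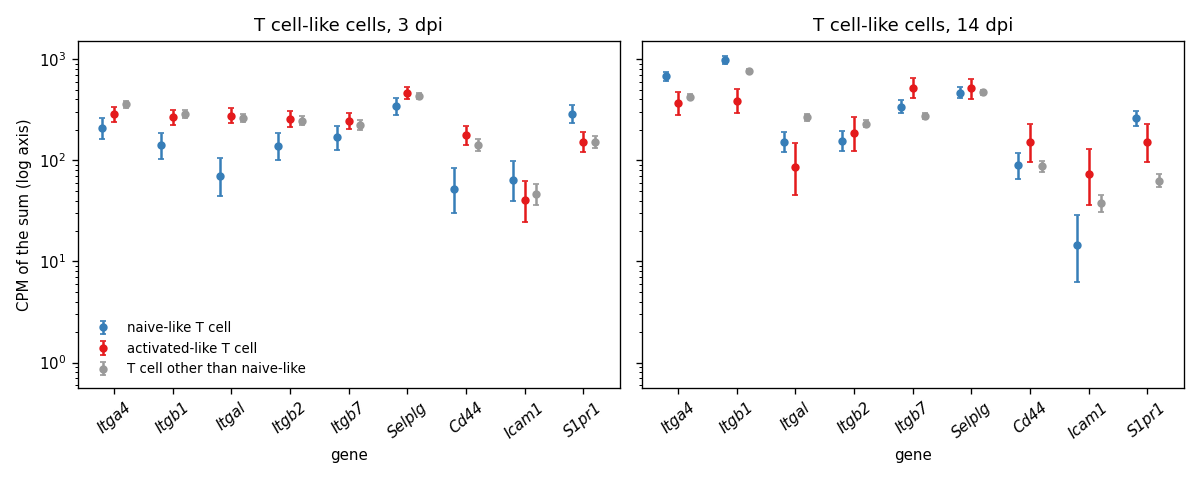
CPM (log axis) of the 9 genes in naive-like, activated-like and all other than naive-like T cells at 3 and 14 dpi, with exact 95% Poisson intervals. S1pr1 was 289 and 260 CPM in naive-like cells, above 152 and 62.9 CPM in the others, and Itgal was 70.7 and 152 CPM, below 262 and 266 CPM in the others.

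Among the subclusters of at least 20 cells at 14 dpi, S1pr1 was 23.8 CPM in the one with Cd79a, 41.1 CPM in cycling cells (79 cells) and 47.7 CPM in interferon-response cells (63 cells). The cytotoxic Cd8b1-rich subclusters held 114 and 62.5 CPM at 3 and 14 dpi. Itgal was 319 CPM in the cytotoxic cells at 3 dpi, the highest among the T cell-like subclusters of that library. Itgb1 exceeded 770 CPM in 6 of these 8 subclusters at 14 dpi and was at most 341 CPM in every subcluster at 3 dpi.

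S1pr1 was at most 4.30 CPM in monocyte-like and neutrophil-like cells at 14 dpi and in sham cord and was higher in both classes at 3 dpi. Microglia-like and macrophage-like cells held 21.5 to 80.6 CPM across the 4 libraries. At 14 dpi monocyte-like, myeloid progenitor-like and dendritic cell-like cells held 1.07, 1.08 and 1.56 CPM, from 6, 8 and 7 UMIs. At 3 dpi monocyte-like, neutrophil-like and dendritic cell-like cells held 26.4, 22.1 and 13.3 CPM, and injury macrophage-like cells 54.9 CPM. Within the Il1b and G0s2 cluster of neutrophil-like cells S1pr1 was 24.2 and 14.0 CPM at 3 and 14 dpi. Myeloid progenitor-like cells were not named at 3 dpi, and in the dendritic cluster led by Xcr1 the levels were 4.02 and 6.47 CPM at 3 and 14 dpi, from 2 and 4 UMIs. B cell-like cells held 206, 119, 185 and 78.1 CPM at 3 dpi, 14 dpi, standard and ActD sham. These B cell-like levels were above those of the monocyte-like and neutrophil-like cells of the same library in all 4 libraries. The part of the macrophage markers in the S1pr1 levels of monocyte-like and neutrophil-like cells at 3 dpi was not tested. After thinning, 17.7% of B cell-like cells (median 2508 UMIs) had an S1pr1 UMI at 3 dpi, against 0.847% of dendritic cell-like cells (median 7012 UMIs) and 3.11% of monocyte-like cells. Without thinning the shares were 36.2%, 9.32% and 17.6%. Among receptors of the family, S1pr4 was 66.6 and 78.6 CPM in T cell-like cells at 3 and 14 dpi, and S1pr5 was 48.8 CPM in NK cell-like cells at 14 dpi, where S1pr1 was 17.4 CPM.

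Blood-derived classes at 14 dpi held more Itga4, Itgal and Itgb7 than microglia-like cells of the same library. T cell-like cells held 18.9-fold more Itga4, 32.8-fold more Itgal and 119-fold more Itgb7. For NK cell-like cells the folds were 11.7, 34.9 and 79.3, and for monocyte-like cells 19.2, 34.5 and 83.4. Neutrophil-like cells had Itgal 15.4-fold higher, Itgb7 2.66-fold and Itga4 1.54-fold. B cell-like cells had 8.86-fold more Itga4 and 16.9-fold more Itgb7 but 3.19-fold more Itgal, and Itgb2 at 36.1 against 326 CPM. At 3 dpi T cell-like cells held 14.8-fold, 18.5-fold and 16.6-fold more Itga4, Itgal and Itgb7 than microglia-like cells.

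Of the 9 genes, 6, 5, 6, 6 and 7 were at least 2-fold apart from microglia-like cells in T, NK, monocyte, neutrophil and B cell-like cells at 14 dpi. The matching shares of all genes tested were 42.0%, 42.6%, 33.9%, 68.5% and 46.8%. Among all genes 14.9% were higher and 19.0% lower in monocyte-like cells, and 11.9% higher and 56.6% lower in neutrophil-like cells. At 3 dpi 4 of 9 differed for T cell-like cells (37.6% of all genes) and 3 of 9 for neutrophil-like cells (40.8%, with 18.4% higher). Neutrophil-like cells had 5.27-fold more Icam1 than microglia-like cells at 3 dpi but a log2 ratio of -2.51 at 14 dpi. With TMM factors T cell-like cells at 14 dpi had 6 genes higher and 1 lower in place of 6 and 0, NK cell-like cells 4 and 1 in place of 5 and 0, and neutrophil-like cells 5 and 3 in place of 3 and 3. No share of all genes was computed with TMM factors. With shares this large among all genes, the counts are not read as particular to the 9 genes.

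Because alpha4 pairs with either beta chain, the share of Itgb7 among UMIs of Itgb7 plus Itgb1 was compared between classes. It was 57.2% (53.1 to 61.2) in gamma-delta T cell-like cells at 14 dpi, 42.8% in dendritic cell-like and 39.2% in monocyte-like cells. In T cell-like cells it was 44.8% (41.5 to 48.1) at 3 dpi and 26.1% (24.7 to 27.6) at 14 dpi, and in NK cell-like cells 37.7% (24.8 to 52.1) and 16.4% (14.5 to 18.5). Itgb7 itself was not lower at 14 dpi, at 284 against 214 CPM in T cell-like and 190 against 186 CPM in NK cell-like cells. The libraries of these times also differ in software version, as given above for Itgb1. Monocyte-like cells had 63.6% in standard sham, 26.6% in ActD sham, where the 20 cells named were of the second cluster, 39.5% at 3 dpi and 39.2% at 14 dpi. Injury macrophage-like cells had 16.3% (15.5 to 17.0) at 3 dpi and 2.26% (1.57 to 3.15) at 14 dpi. The markers of that class differed between the times, as given above, and their part in the share was not tested. Microglia-like cells had 6.09% at 3 dpi and 0.667% to 0.807% in the other 3 libraries. The share was thus at most 16.3% in macrophage-like and microglia-like classes, and 11.6% to 19.8% in neutrophil-like cells. It was 42.8% to 75.6% in the dendritic, progenitor and gamma-delta T cell-like classes. Plasmacytoid dendritic cell-like cells (57.1%) and the B cell-like (50.4%), T cell-like (55.4%, from 26 cells) and monocyte-like cells of standard sham were as high. The T cell-like cells of 3 dpi lay in that range too. The dendritic share is that of the whole class, and its migratory cluster, described below, held little Itgb7. These shares describe RNA, and the chains also pair with other partners.

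**Figure D5:**
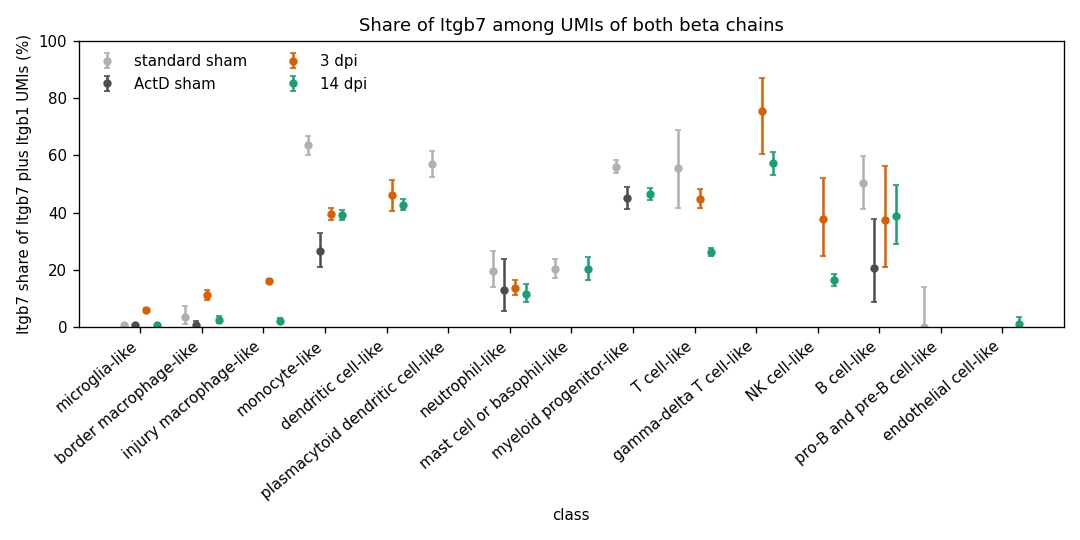
Share of Itgb7 among UMIs of Itgb7 plus Itgb1 (percent, with exact 95% Clopper-Pearson intervals) by class and library. Microglia-like and macrophage-like classes lie at 16.3% or below, gamma-delta T cell-like cells at 57.2% and 75.6%, and T cell-like cells at 44.8% at 3 dpi and 26.1% at 14 dpi.

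B cell-like cells held less LFA-1 message than T cell-like cells, with Itgal at 24.1 and 42.9 CPM at 14 and 3 dpi. Only Itgb2 was at least 2-fold apart of the 6 genes with enough UMIs, at 36.1 CPM at 14 dpi against 111 CPM at 3 dpi, where 19.1% of genes tested differed and 4.61% were lower. The difference was under 2-fold without doublet removal (log2 -0.32 in place of -1.62) and turned around when cells with both Itgam and lymphoid markers stayed in (0.35). Itga4 was 220 and 186 CPM at 14 and 3 dpi and 170 and 258 CPM in standard and ActD sham. Immature pro-B and pre-B cell-like cells had more Itga4 (699 CPM at 14 dpi and 492 CPM in standard sham, from 48 and 42 cells) and less S1pr1 (44.0 and 48.8 CPM) than B cell-like cells.

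Dendritic cell-like cells divided sharply by cluster. The migratory cluster led by Ccr7 and Fscn1 held 613 CPM of Itga4 and 857 CPM of Itgb1 at 14 dpi, against 231 and 286 CPM in the cluster led by Cd209a. It held little beta2 (16.9 against 229 CPM), alphaL (3.39 against 53.6 CPM) and beta7 (16.9 against 257 CPM). The same was seen at 3 dpi against the Xcr1 cluster, with 524 against 74.4 CPM of Itga4 and 32.1 against 251 CPM of Itgb2. These clusters held 40 and 369 cells at 14 dpi and 68 and 50 at 3 dpi. Icam1 was 217 CPM in the migratory cluster at 14 dpi and 30.8 CPM in the Cd209a cluster. S1pr1 stayed at or under 24.7 CPM in all of them. The Cd209a cluster carried the dendritic name at 14 dpi but not at 3 dpi, so the class holds different clusters at these times.

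Across 33 sums of class and library, the genes most like Itgb7 were Pfkp, Runx3 and Atp5h (r 0.89, 0.87 and 0.86), and those most like Itgal were Pstpip1, Diaph1 and Tnfsf14 (0.87, 0.86 and 0.83). Itga4 was most like Mndal, Ifi203 and Clec2i (0.88, 0.85 and 0.84) and Itgb2 most like Myo1f, Cln3 and Lasp1 (0.87, 0.87 and 0.86). Cd44 was most like S100a11, Ltb4r1 and Diaph1 (0.87, 0.86 and 0.86), and S1pr1 most like Lamc1, Grap and St6gal1 (0.85, 0.79 and 0.79). For Selplg they were Prex1, Fam89a and Elmo1 (0.79, 0.78 and 0.77) and for Itgb1 Prkch, Dnajc1 and Dnajc3 (0.85, 0.83 and 0.83). These correlations describe sums that share libraries and depth, and carry no test.

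In GRCm38 (GENCODE M21), Itga4 spans chromosome 2 from 79255426 to 79333123, Itgb1 chromosome 8 from 128685654 to 128733200, and Itgal chromosome 7 from 127296260 to 127335138. Itgb2 lies on chromosome 10 from 77530252 to 77565708, Itgb7 on chromosome 15 from 102215995 to 102231944, and Selplg on chromosome 5 from 113818536 to 113832644. Cd44 spans chromosome 2 from 102811141 to 102901665, Icam1 chromosome 9 from 21015985 to 21028817, and S1pr1 chromosome 3 from 115710433 to 115715072.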

How the data were processed

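For each of the 4 libraries, the authors deposited UMI counts as whole numbers for each gene and barcode, not normalized. Per the labels, reads were processed with Cell Ranger on mm10, and the matrix headers carry versions 3.0.1 and 3.1.0. The limits of the study were used, a minimum of 600 genes and a maximum of 10% mitochondrial UMIs, and cells positive for both Itgam and a lymphoid gene were removed. Scrublet in scanpy 1.11.5 replaced DoubletFinder and removed 291, 42, 774 and 931 cells of standard sham, ActD sham, 3 dpi and 14 dpi. Totals were 27447471 to 129935880 UMIs, and 3 to 36 barcodes were shared between pairs of libraries.

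Seurat 5.3.0 (R 4.3.3) integrated the libraries (2000 features without the 9 genes and related lists, 50 dimensions, k.filter 200) and clustered them at a resolution of 0.6. Clusters were named per library from marker lists, needing 3 markers in 25% of cells, and stayed unnamed where another class had more markers among the 10 leading genes. Naming thresholds were set after the clusters had been seen. T cell-like cells were clustered again within libraries, also without the 9 genes. UMI sums of classes with at least 20 cells gave CPM.

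A gene counted as apart at 2-fold or more, among genes reaching 50 UMIs over both sums. The rule named all 9 genes, up to 3 genes per related list and comparison by the size of the log2 ratio, and 3 genes per member by correlation over sums of at least 50 cells. Only some of the list genes are given, and some genes are not reported here. Genes named as leading a cluster were chosen after its values were seen. The members and lists were chosen with earlier results of these data known, and ratios between times within clusters and against other T cells were added after the levels had been seen. TMM factors came from edgeR 4.0.16. Alternatives were TMM scaling, equal weight per cell, stricter filters, no gene minimum, no removal of doublets or of cells with both lineages, libraries clustered alone, and a resolution of 1.2. In class sums simulated with Poisson counting error only, 95.5% to 96.2% of the ratio intervals held the true ratio. The simulation had no spread between cells, mice or libraries, so it cannot show how the intervals cover such spread.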

Additional observations from a re-analysis of the deposited data

Results flagged for a closer look

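Icam1 was at least 2-fold apart in opposite directions under the same comparison at the 2 times. Between neutrophil-like and microglia-like cells its log2 ratio was 2.40 at 3 dpi and -2.51 at 14 dpi. The neutrophil-like level was 306 CPM and 10.4 CPM, while the microglia-like level was 58.2 and 59.2 CPM. With 1 library per time, the difference between the times was not tested.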

How the results depend on the processing

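Of the 183 ratios of the 9 genes, 75 were at least 2-fold, and of the 667 values these took under the alternatives 28 were under 2-fold and 6 changed sign, 1 of them at over 2-fold. Of 195 alternative counts, 165 lay within 1.5 times the count reported. They were counts of genes 2-fold apart, of Itgb7 shares of at least 25%, and of shares of at least 10% of cells with a UMI. The shares of all genes were not computed under the alternatives, so the alternative counts are not set beside them. TMM factors changed the sign of 21 of the 183 ratios. The causes of the changes below were not tested. For neutrophil-like cells at 14 dpi over ActD sham the count of 0 became 1 with TMM factors, 2 with equal weight per cell, 1 with no gene minimum, 4 without doublet removal and 1 in the Retnlg cluster. That cluster alone gave 2 genes for 3 dpi over ActD sham, since S1pr1, Itgb7 and Itga4 (42.5 against 13.5 CPM) had fewer than 50 UMIs, and 2 for 3 over 14 dpi. No value it gave for a 2-fold ratio was under 2-fold, and the Il1b and G0s2 cluster alone gave log2 ratios of -0.13 for Itgb1 and -0.28 for Itgb7 for 3 over 14 dpi. The homeostatic cluster of microglia-like cells alone gave 2 genes in place of 5 for 3 dpi over ActD sham, since Itga4 (11.1 against 2.05 CPM), Itgal (6.34 against 0.228) and Itgb7 (12.7 against 0.341) had fewer than 50 UMIs there. For neutrophil-like over microglia-like cells at 3 dpi the count was 5 with each library clustered alone and 5 without the cycling cluster. When cells positive for both Itgam and lymphoid genes stayed in, the counts of 14 over 3 dpi were 3 in T cell-like and 3 in B cell-like cells, and Itgb2 in B cell-like cells had a log2 ratio of 0.35. For B cell-like cells the count was 0 with the stricter filter and 2 without doublet removal. For injury over border macrophage-like cells it was 3 with those cells in, 1 without doublet removal and 1 with each library clustered alone, and for injury macrophage-like over microglia-like cells 2 without doublet removal.

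For naive-like over activated-like T cells at 3 dpi the count was 4 with equal weight per cell, with cells of both lineages kept, without doublet removal and at a resolution of 1.2, and 5 with each library clustered alone. At 14 dpi it was 4 with TMM factors, 2 with no gene minimum, 2 with cells of both lineages kept, 5 without doublet removal, 0 with each library clustered alone and 2 against all other T cells. The log2 ratio of Itgb1 there was -0.28 with cells of both lineages kept, -1.28 without doublet removal and -0.15 with each library clustered alone. Shares of at least 10% of cells with a UMI numbered 178 of 360 after thinning and 302 without it. Monocyte-like over injury macrophage-like cells at 14 dpi could not be computed with each library clustered alone. The alternatives on single clusters, on the cycling cluster and on other T cells were chosen after seeing the data. No paired analysis was possible because each group had 1 library. Levels resting on few UMIs, such as S1pr1 in monocyte-like cells at 14 dpi, are limited by depth.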
